A study of Mus musculus with 24 samples.

Results

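This report compares the CCR7 population of the mouse mammary tumour line EO771 with its X2 control in the first sequencing batch. It uses 8 of the 24 samples of the series, 4 libraries of CCR7 and 4 of X2, and all genes. The comparison was chosen from the sample labels, and genes lying in shifted regions of chromosomes 8, 9 and 14 were kept apart from the rest.

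The series holds polyadenylated RNA of 4 derivatives of EO771 in 2 batches of 12 libraries. X2 cells are the vector control, and CCR7 cells received the retroviral vector pLNCX2 with mouse Ccr7 cDNA and the reporter tdTomato. The reporter was followed in X2 cells too. CCR7-PDPN and X2-PDPN are the cells of each line sorted for high surface PDPN. CCR7 was run with X2 and CCR7-PDPN in batch 1, while batch 2 had X2-PDPN in its place.

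The receptor CCR7 binds the chemokines CCL19 and CCL21 and signals through inhibitory G proteins, and it directs leukocytes, and some tumour cells, towards lymphatic vessels. PDPN is a mucin-like surface protein that binds CLEC-2 on platelets and is found on lymphatic endothelium and on some tumour cells. In bulk RNA a transcript can differ because each cell holds more of it or because more cells hold it, and these libraries do not tell the 2 apart.

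Transduced cells were selected with G418 and enriched by sorting for tdTomato and CCR7, with no cloning step, and the column names give the CCR7 libraries as the PDPN-negative sort. Each group is 1 population in 4 technical replicates, so every test below measures only the spread between these libraries. CCR7 was sequenced in batch 1 alone. The effect of the receptor, of the sorting steps and of the separate history of the population cannot be told apart here. Reads of the transgene cannot be told apart from reads of the endogenous Ccr7 gene, since they share the coding sequence. The aligner and the strand setting of the counting are not given in the sources used here, so the counts of overlapping, antisense or near-identical genes carry added uncertainty.

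Library totals were 28484857, 23875130, 31157077 and 29065329 counts in X2 replicates 1 to 4 and 32016417, 29073553, 33395418 and 22275468 counts in CCR7 replicates 1 to 4. CCR7 replicate 4 was the shallowest of the 8 and CCR7 replicate 3 the deepest. In what follows, the values of a group are given in the order of replicates 1 to 4, as counts-per-million of the scaled library total (CPM) unless another scale is named. Fold changes are log2 values of CCR7 minus X2 with their standard errors. Adjusted p values come from edgeR's quasi-likelihood test with the Benjamini-Hochberg adjustment.

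CCR7 replicate 1 stood apart from the other CCR7 libraries. Set against replicates 2, 3 and 4 gene by gene, the chi-square of its counts divided by the degrees of freedom was 22.5, 17.6 and 13.5, where the other CCR7 pairs gave 8.48, 4.82 and 2.68 and the X2 pairs 2.07 to 3.73. It lay more than 0.5 log2 above all 3 others in 127 genes and below them in 99 of 10579 genes, against 66 and 15 for replicate 2, 10 and 31 for replicate 3 and 10 and 14 for replicate 4. Mitochondrial genes took 0.804% of its counts, against 0.427%, 0.347% and 0.449% in the others and 0.435%, 0.56%, 0.628% and 0.602% in X2. The longest 20% of the genes took 26.8% of its counts and 29.2%, 27.7% and 28.3% of those of the other CCR7 libraries, with X2 at 27.1%, 27.4%, 27.2% and 26.7%. The library was kept, and the main counts are given with and without it.

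The comparison of CCR7 with X2 asks how far a line carrying the receptor differs from the vector control line. Many genes differed by a small amount and few by a large one, and rises and falls were close in number. Part of the difference lay in blocks of neighbouring genes that moved together, and these are treated apart from the genes spread over the rest of the genome.

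Of 13261 genes tested, 437 (3.30%) were higher and 422 (3.18%) lower in CCR7 with an adjusted p under 0.05 in edgeR's test and a log2 fold change beyond 1. In 396 of the higher and 401 of the lower genes the 4 CCR7 libraries all lay on the same side of the 4 X2 libraries. By the adjusted p alone 3189 genes (24.0%) were higher and 3345 (25.2%) lower. The median log2 fold change over all genes was 0. Without CCR7 replicate 1 the counts were 455 and 481, of which 396 and 396 were shared with the counts from all libraries.

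Outside the shifted windows described further below, 11679 genes were tested. There 303 (2.59%) were higher and 352 (3.01%) lower, with the groups apart in 275 and 335 of them, and the median log2 fold change was 0.01. Leaving out CCR7 replicate 1 gave 324 higher and 400 lower genes there. Inside the windows 134 genes were higher and 70 lower of 1582.

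The first result is the receptor itself, together with the genes whose change was largest. Ccr7, which the vector encodes, read 0.524, 0.165, 0.285 and 0.409 CPM in X2 and 2720, 2860, 2840 and 2780 CPM in CCR7. All 4 CCR7 libraries were high and close to one another, and all X2 libraries were under 1 CPM. The log2 fold change was 12.94 ± 0.09 (edgeR adjusted p = 1.5e-22), and the group means were 0.346 ± 0.155 and 2800 ± 66.7 CPM. Raw counts were 15, 4, 9 and 12 in X2 and 87681, 82171, 94609 and 61655 in CCR7, so the X2 level rests on few reads. Per length, Ccr7 rose from 0.653 to 5310 transcripts-per-million (TPM), rank 8 in CCR7 among 23931 genes with a count. On that scale the gene length of the annotation was used. The transgene holds Ccr7 cDNA, whose length is not given in the sources used here.

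Podoplanin (Pdpn) was at the floor of detection in X2 and low but above it in CCR7, at 0.0699, 0.0824, 0.095 and 0 CPM in X2 and 0.62, 0.418, 0.301 and 0.315 CPM in CCR7. The CCR7 libraries were all above the X2 libraries, yet at levels under 1 CPM. Its log2 fold change was 2.69 ± 0.47, and 2.41 without CCR7 replicate 1. Pdpn passed the filter on low counts through the CCR7-PDPN libraries of the batch, where it is high. It had a value in 14 of 15 alternatives, and its test is left out here.

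The named rises and falls were taken from genes outside the windows whose average log2 CPM reached 1 and whose groups did not overlap. The largest rise after Ccr7 was that of Tmsb4x, which encodes thymosin beta 4, a small protein that binds actin monomers. It read 0.0699, 0.124, 0.127 and 0.136 CPM in X2 and 12.3, 11.9, 12.6 and 12.6 CPM in CCR7. The gene went from a few reads in every X2 library to a steady moderate level in every CCR7 library. Its log2 fold change was 6.70 ± 0.15 (edgeR adjusted p = 1.3e-18). Near-identical copies of Tmsb4x elsewhere in the genome may take or give reads, and this was not tested. The related gene Tmsb10 did not change (0.05).

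Of the next genes, Pcdhgb1 encodes a clustered protocadherin, an adhesion protein, and Bche encodes butyrylcholinesterase. Pcdhgb1 read 0.175, 0.124, 0.19 and 0.307 CPM in X2 and 6.13, 6.51, 6.34 and 6.53 CPM in CCR7. Bche read 0.384, 0.247, 0.253 and 0.409 CPM in X2 and 6.23, 7.04, 6.46 and 6.76 CPM in CCR7. In both genes all CCR7 libraries were high, all X2 libraries were low, and nothing overlapped. The log2 fold changes were 4.95 ± 0.18 for Pcdhgb1 and 4.33 ± 0.17 for Bche (edgeR adjusted p = 1.2e-15 and 5.2e-15). Pcdhgb1 shares its 3' exons with the rest of the gamma cluster on chromosome 18, so its count depends on how shared exons were assigned. Its neighbours were Pcdhga3 at 1.79 and Pcdhgb2 at 0.31, the latter not passing the test. Between 30 and 40 Mb of that chromosome 17 genes were higher and 2 lower of 110, with a median of 0.107. Over all genes outside the shifted windows 2.59% were higher and 3.01% lower. The genes of this stretch are part of those counts, so any of them that share exons carry the same limit there.

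Col6a3, a chain of collagen VI, read 1.71, 1.77, 2.18 and 1.91 CPM in X2 and 12.1, 19.2, 13.9 and 16.6 CPM in CCR7. The CCR7 libraries differed among themselves but all lay far above X2, with a log2 fold change of 3.01 ± 0.20 (edgeR adjusted p = 2.6e-07). Other genes in the group of 10 largest rises were Mrc2, an endocytic collagen receptor (3.54), Ckmt2, a mitochondrial creatine kinase (3.33), Anks1b (3.32), Slc16a4, of the monocarboxylate transporter family (3.24), and the orphan receptor Gprc5b (2.80). Slc16a4 was uneven in X2, at 0.594, 0.412, 0.0633 and 0.136 CPM against 2.88, 2.93, 2.83 and 2.43 CPM in CCR7. It was low but scattered in X2 and even in CCR7, and without X2 replicate 1 its log2 fold change went from 3.24 to 3.85.

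The largest falls outside the windows exceeded the rise of Tmsb4x. Rhox1, an X-linked homeobox gene of the reproductive cluster, read 29.7, 27.2, 27.8 and 30.3 CPM in X2 and 0.031, 0, 0 and 0 CPM in CCR7. It was well detected in all X2 libraries and all but absent from CCR7, where 1 count remained against 3280 in X2. The log2 fold change was -11.13 ± 0.20 (edgeR adjusted p = 1.7e-20). Scaled to the library totals the ratio was 3400 with an exact 95% interval of 610 to 134000, which covers counting error only. Leaving out CCR7 replicate 1, which held the single read, left no count in CCR7, so no fold change is given for that case.

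Rnf43 encodes a membrane ubiquitin ligase that removes Frizzled receptors and so damps Wnt signalling. It read 25.9, 25.5, 25 and 28.2 CPM in X2 and 0.186, 0.174, 0.18 and 0.18 CPM in CCR7. Every X2 library was high and every CCR7 library held a few reads, with no overlap. Its log2 fold change was -7.15 ± 0.12 (edgeR adjusted p = 7.3e-21). The genes on either side, Mtmr4 (-0.08) and Supt4a (-0.06), did not share the fall, and the related ligase Znrf3 stood at 0.22.

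Bmp7, a secreted ligand of the BMP receptors, read 8.07, 8.82, 8.01 and 9.06 CPM in X2 and 0.124, 0.314, 0.0601 and 0.315 CPM in CCR7. Pde4b, a phosphodiesterase that degrades cyclic AMP, read 10.3, 10.8, 9.12 and 10.9 CPM in X2 and 1.58, 0.732, 1.08 and 1.22 CPM in CCR7. For each of these genes X2 was high and CCR7 low in all libraries. The log2 fold changes were -5.45 ± 0.22 for Bmp7 and -3.14 ± 0.14 for Pde4b (edgeR adjusted p = 9.0e-15 and 4.1e-14).

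Rgs16, which speeds the shut-off of G alpha i and G alpha q signals, read 9.58, 9.68, 9.25 and 10.9 CPM in X2 and 1.55, 1.25, 1.92 and 1.58 CPM in CCR7. It was low in each CCR7 library and high in each X2 library, with a log2 fold change of -2.63 ± 0.13 (edgeR adjusted p = 1.5e-13).

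Other large falls were those of Armcx1 (-4.92), Vasn, a membrane protein that binds TGF-beta (-3.54), and the unnamed transcript 3110039I08Rik (-2.66). Without CCR7 replicate 1 the last moved to -3.15 and Armcx1 to -5.31. Vasn lies within Coro7 and the split of their reads depends on the counting. Since the genes above were picked for separate groups, the separation itself is no finding.

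**Figure D1:**
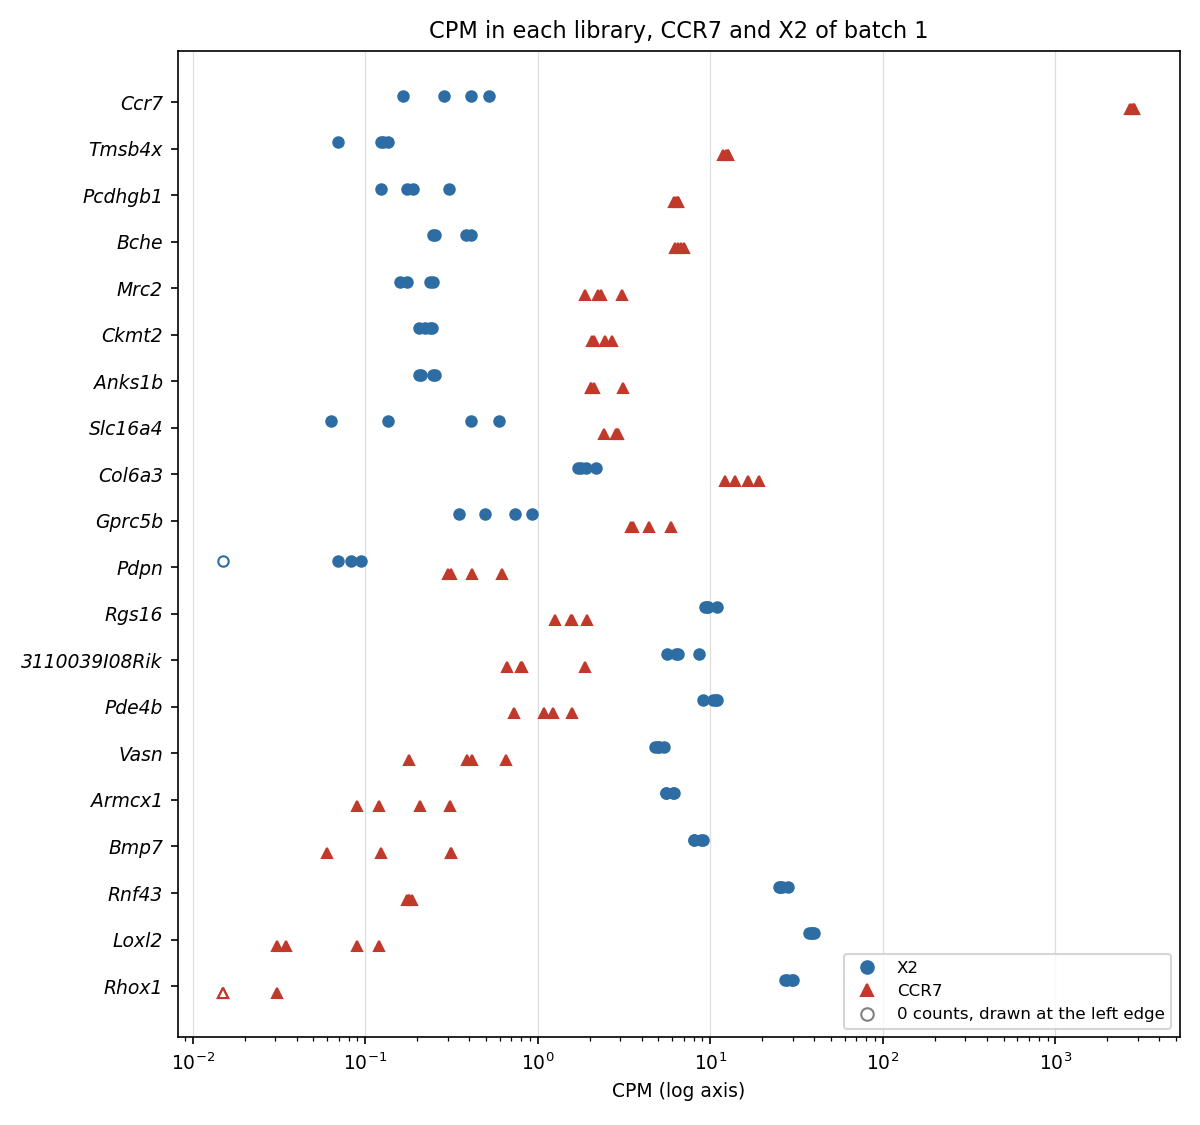
Per-library CPM (log scale) of the named genes in X2 and CCR7, 4 libraries each. Ccr7 stood at 2720 to 2860 CPM in CCR7 and under 1 CPM in X2, and Rhox1 had counts in 1 of 4 CCR7 libraries.

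Neighbouring genes on a chromosome can shift together by a similar small amount. Long runs of the same sign are therefore described here by the median of all tested genes in them. DNA was not measured, and a shared shift of transcripts was not traced to its source. Windows were 10 Mb wide with at least 10 tested genes, and a window of chromosomes 8, 9 or 14 was called shifted when its median was at least 0.2 in size.

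Of 254 windows with enough genes, 36 lay on chromosomes 8, 9 and 14, and 30 of these were shifted. On other chromosomes 5 of 218 windows passed the same limit, with medians between -0.214 and 0.278. Just short of the limit lay chromosome 9 at 50 to 60 Mb (0.199) and chromosome 8 at 50 to 60 Mb (-0.19), and the smallest inside it were -0.25 on chromosome 8, 0.26 on chromosome 9 and -0.32 on chromosome 14.

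The strongest shift was at the far end of chromosome 8. Between 100 and 130 Mb the median of 265 genes stood 0.84, 0.82, 0.87 and 0.83 log2 above the X2 mean in the CCR7 libraries, and at 0.01, 0, 0 and 0 in the X2 libraries. All 4 CCR7 libraries were raised alike. The median log2 fold change was 0.92, 86.4% of the genes were above 0, and 94 were called higher and 1 lower. The middle of the chromosome went the other way, with medians of -0.31 at 10 to 50 Mb (162 genes) and -0.27 at 60 to 100 Mb (279 genes). Over all shifted windows of chromosome 8, 103 genes were higher and 28 lower of 738.

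Chromosome 9 was raised over most of its length and chromosome 14 lowered. From 60 to 130 Mb of chromosome 9 the median of 393 genes stood at 0.40, 0.37, 0.39 and 0.40 in the CCR7 libraries, with 87.5% of the genes above 0 in the test and 24 higher and 5 lower. From 10 to 80 Mb of chromosome 14 the median of 370 genes was -0.44, -0.44, -0.44 and -0.46, with 93% of the genes below 0 and 4 higher and 35 lower. The CCR7 libraries were again alike within each stretch. Median log2 fold changes were 0.42 and -0.46, and those of the shorter stretches were 0.49 on chromosome 9 at 30 to 40 Mb (38 genes) and -0.40 on chromosome 14 at 100 to 130 Mb (43 genes).

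**Figure D2:**
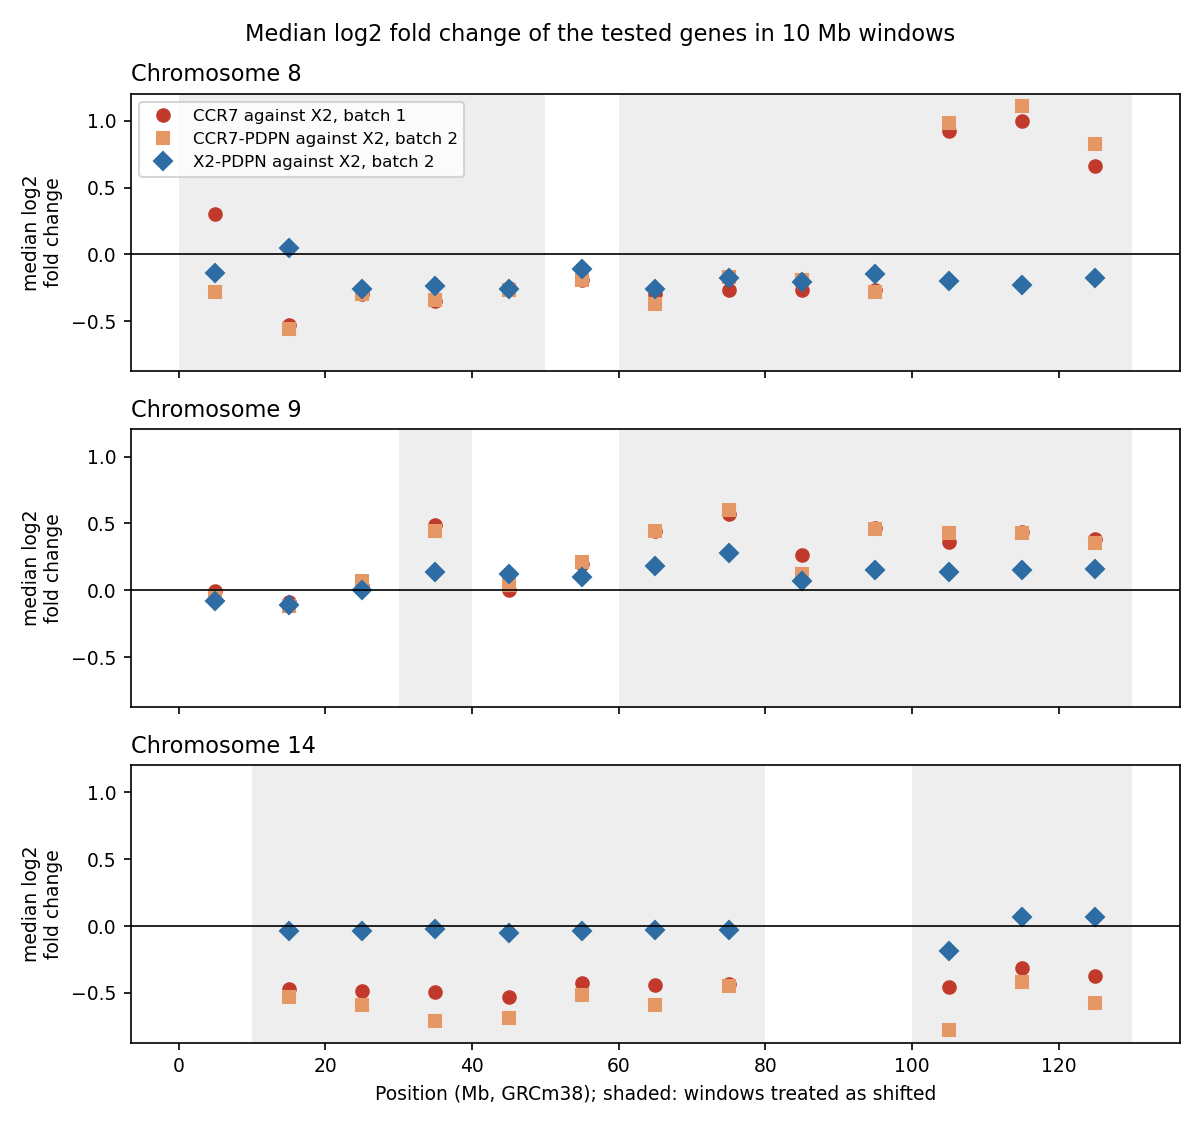
Median log2 fold change over X2 in windows of 10 Mb along chromosomes 8, 9 and 14 (position in Mb), for CCR7 in batch 1 and for CCR7-PDPN and X2-PDPN in batch 2, with shifted windows shaded. In CCR7 the far end of chromosome 8 (100 to 130 Mb) stood at 0.92 and chromosome 14 at 10 to 80 Mb at -0.46.

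Single genes inside the windows changed by more than their surroundings. Loxl2 on chromosome 14 encodes a lysyl oxidase that cross-links collagen. It read 39, 38.6, 39.9 and 37.1 CPM in X2 and 0.031, 0.0348, 0.12 and 0.0901 CPM in CCR7. The X2 libraries were level and the CCR7 libraries nearly empty, with a log2 fold change of -9.05 ± 0.14 (edgeR adjusted p = 2.2e-21). Its neighbours fell far less, R3hcc1 (-0.44) by about the median of the window (-0.443) and Slc25a37 (-0.69) by more. Glud1, the mitochondrial glutamate dehydrogenase, read 1110, 1080, 1060 and 1110 CPM in X2 and 303, 321, 335 and 320 CPM in CCR7. It was high in all X2 libraries and lower in all CCR7 libraries, with a log2 fold change of -1.77 ± 0.03 (edgeR adjusted p = 1.1e-20), beside an adjacent Shld2 at -1.72.

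Scel, a gene of cornifying epithelium, stood at -3.07 on chromosome 14. Of genes named by the same rule inside the windows, chromosome 8 gave Podnl1 (-2.23), the microtubule minus-end protein Camsap3 (1.94) and BC048644 (1.75), which overlaps Car5a. Chromosome 9 gave Gm32171 (2.08), the RNA-binding protein gene Rbpms2 (1.85) and Ube2cbp (1.84).

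Batch 2 holds CCR7-PDPN and X2 libraries that share none of the libraries above, though the X2 population is the same and CCR7-PDPN was sorted from the CCR7 line. It also holds X2-PDPN, sorted for PDPN without the Ccr7 transgene. The 2 comparisons of batch 2 use the same X2 libraries as each other. A gene changed in CCR7 can thus be looked up in a second set of libraries of a related population, and also in a population that lacks the receptor.

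CCR7-PDPN against X2 in batch 2 gave 527 genes (3.96%) higher and 755 (5.67%) lower of 13314, and X2-PDPN against X2 gave 467 (3.51%) and 206 (1.55%). The deposited batch 2 table held 13915 genes, against 55471 in batch 1, and the rule that reduced it is not stated, so the shares below cover only genes present in it. Of the 303 genes higher in CCR7 outside the windows, 271 were tested in batch 2 and 175 (64.6%) were called higher in CCR7-PDPN, which is 50.1% of the 349 called higher there outside the windows. For 2 genes the call was opposite. Of the 352 lower genes, 340 were tested and 271 (79.7%) were called lower in CCR7-PDPN, 46.6% of the 582 called lower there, and 1 was opposite. The medians of the 2 lists in CCR7-PDPN were 1.25 and -1.83, beside 0 over all genes.

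In X2-PDPN 79 of the 271 (29.2%) were called higher, 23% of 343, and 65 of the 340 (19.1%) lower, 37.4% of 174. Opposite calls numbered 8 and 33. The list medians there were 0.51 and -0.21.

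In batch 2 Ccr7 stood at 13.15 in CCR7-PDPN, Tmsb4x at 4.92, Pcdhgb1 at 4.20 and Bche at 1.13. The falls there were -10.21 for Rhox1, -7.32 for Rnf43, -8.13 for Loxl2, -4.71 for Bmp7 and -1.87 for Glud1. X2-PDPN gave -0.61 for Rnf43, -0.49 for Bmp7 and 0.20 for Loxl2. Values of -0.11 for Rhox1 and -0.05 for Glud1 did not pass the test (edgeR adjusted p = 0.057 and 0.069). X2-PDPN also gave -2.70 ± 0.81 for Tmsb4x, -1.52 ± 0.51 for Bche, -0.94 ± 0.42 for Pcdhgb1 and 0.92 ± 0.38 for Ccr7. All of these were under 1 CPM in X2 of batch 1. Whether they passed the filter of batch 2 only through CCR7-PDPN was not examined, so their tests in X2-PDPN are left out. Pdpn, the sorted marker, stood at 7.19 in CCR7-PDPN and 7.25 in X2-PDPN. Col6a3 was higher in both, at 6.15 and 2.77. So were other large rises: Mrc2 stood at 4.22 and 1.53, Ckmt2 at 4.17 and 2.22, Slc16a4 at 3.44 and 2.63 and Gprc5b at 1.73 and 1.85. Anks1b stood at 4.15 in CCR7-PDPN and 0.21 in X2-PDPN. All of these but Col6a3 were under 1 CPM in X2 of batch 1.

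Within batch 1, CCR7-PDPN minus CCR7 shares the CCR7 libraries with the comparison above, so its values are given without any measure of likeness. Ccr7 stood at 0.11 there, Tmsb4x at -2.05, Bche at -3.80, Rnf43 at -1.39, Col6a3 at 3.11 and Pdpn at 5.91.

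Most of the regional shifts had the same sign in CCR7-PDPN of batch 2. The medians were 0.98 for chromosome 8 at 100 to 130 Mb, 0.42 for chromosome 9 at 60 to 130 Mb and -0.57 for chromosome 14 at 10 to 80 Mb, and X2-PDPN gave -0.20, 0.17 and -0.04. The lowered middle of chromosome 8 was lower in both, with -0.33 and -0.22 at 10 to 50 Mb.

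The start of chromosome 8 did not follow. At 0 to 10 Mb the median of 32 genes was 0.30 in CCR7 and -0.28 in CCR7-PDPN of batch 2. Its first 5 Mb held 20 genes whose average log2 CPM reached 1. Of these 18 were above 0 in CCR7, with a median of 0.42 and a range of -0.11 to 1.94, and their batch 2 median in CCR7-PDPN was -0.24. Against CCR7 within batch 1 all 20 were below 0 in CCR7-PDPN (median -0.59). That comparison shares the CCR7 libraries in which the stretch was seen to be high, so values below 0 were favoured in advance.

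Gene lists were read next, each by the number of tested members past both thresholds and the median log2 fold change. Over all genes 3.30% were higher and 3.18% lower past both thresholds, and the median was 0. Counts by the adjusted p alone stand beside 24.0% higher and 25.2% lower over all genes. Lists are ordered by closeness to the receptor and by function. Where the median moved without the filter on low counts, the unfiltered value follows it in brackets. No test of a list as a whole was made.

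Signalling through the receptor needs its ligands, G proteins, arrestins, receptor kinases and the regulators that shut the signal off. Of 42 tested members of this axis 2 were higher and 3 lower past both thresholds, with a median of 0.05. Ligand genes Ccl19 and Ccl21a and the scavenger Ackr4 had no count in any of the 8 libraries, nor had Cxcr4 and Rgs2. The G alpha i genes Gnai2 (0.35, on raised chromosome 9) and Gnai3 (0.09) and the arrestin gene Arrb2 (-0.14) moved little, while Arrb1 rose (0.60). Apart from Ccr7 and Rgs16, the called members were Rgs14 (1.18), the receptor kinase gene Grk3 (-2.56), at under 1 CPM, and Rgs10 (-1.05).

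Chemokines and cytokines are the signals that tumour cells send to leukocytes and stroma. Of 18 tested members 2 were higher and 4 lower, with a median of -0.26. The monocyte attractant Ccl7 read 7.24, 6.63, 7.31 and 6.98 CPM in X2 and 1.43, 2.12, 1.74 and 1.8 CPM in CCR7. All X2 libraries were above all CCR7 libraries, and the log2 fold change was -2 ± 0.13 (edgeR adjusted p = 4.6e-11). Il11 (-1.54), Tnf (-1.46, under 1 CPM) and Lif (-1.03) were lower, with Ccl2 at -0.87 short of the fold threshold. Ccl28 (1.01) and Ccl25 (1.05, on raised chromosome 8) were higher. The median was -0.38 when CCR7 replicate 1 was left out.

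Interferon-stimulated genes are switched on by STAT and IRF factors after interferon or foreign nucleic acid is sensed. No other list had as many called members, though no other list had as many tested ones either. Of 66 tested members 0 were higher and 19 lower past both thresholds, and by the adjusted p alone 2 were higher and 55 lower. The median was -0.59, and -0.62 without CCR7 replicate 1. Summed over the list, X2 libraries held 2453, 2294, 2289 and 2419 CPM and CCR7 libraries 1768, 1775, 1730 and 1630 CPM. Every CCR7 sum lay below every X2 sum.

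The antiviral gene Oasl2 read 43, 34.7, 32.9 and 39.9 CPM in X2 and 10.9, 10.3, 8.93 and 7.21 CPM in CCR7, and the ubiquitin-like modifier Isg15 read 28.5, 26.2, 26.5 and 27.8 CPM in X2 and 14, 14.4, 12.4 and 10.1 CPM in CCR7. In both the groups were apart, with CCR7 low. The log2 fold changes were -2 ± 0.11 and -1.09 ± 0.07 (edgeR adjusted p = 1.1e-09 and 8.0e-11). Phf11d on chromosome 14 (-3.60), Zbp1 (-2.09), Usp18 (-1.66), Ifi44 (-1.41), the factor Irf7 (-1.23) and the RNA sensor Ifih1 (-1.16) also fell, and Ifi27 (0.20) and Oas1c (0.57) rose. Zbp1 was under 2 CPM and moved to -2.73 without CCR7 replicate 1. No change was found in Mx1 (-0.06), Mx2 (-0.12) or Irf1 (-0.04).

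The list of receptors and sensors of the pathway had 0 of 14 past both thresholds and a median of -0.09. By the adjusted p alone 5 were higher and 6 lower. The RNA sensor Ifih1 (-1.16), with Dhx58 (-1.03) and Ddx58 (-0.53), was counted among the interferon-stimulated genes instead. Adar stood at -0.39, Cgas, on raised chromosome 9, at -0.28, Tyk2 at -0.20 and Ifngr2 at 0.39. Ifnb1 was not tested for want of counts. Genes of MHC class I, which are partly under the same control, had 0 of 18 past both thresholds but 15 lower and 1 higher by the adjusted p alone, with a median of -0.36 (unfiltered -0.42). The peptide transporter Tap1 read 66.2, 62.3, 59.8 and 61.5 CPM in X2 and 36.3, 34.4, 36.5 and 35 CPM in CCR7. Its groups were apart with CCR7 low, and the log2 fold change was -0.81 ± 0.04 (edgeR adjusted p = 1.1e-12). Without CCR7 replicate 1 the immunoproteasome gene Psmb9 passed the fold threshold (-1.04). Psmb9 (-0.98), Psmb8 (-0.69) and the class I genes H2-M3 (-0.70), H2-K1 (-0.55), B2m (-0.44) and H2-D1 (-0.24) were lower.

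In batch 2 the interferon-stimulated list had a median of -1.61 in CCR7-PDPN and -1.25 in X2-PDPN, and MHC class I -0.58 and -0.47. Both list medians were thus below 0 also in cells sorted for PDPN without the receptor.

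Many of these genes carry an interferon-stimulated response element near their start. Promoters of 300 bases from the RefSeq models of GRCm38.p6 were searched on both strands for the letters GAAANNGAA, and a match describes the sequence and no more. The letters occurred in 31 of 54 listed genes with a promoter (57.4%), against 9.76% of all genes in the promoter table. Among tested members they occurred in 6 of the 14 that were lower past both thresholds (42.9%) and in 22 of the other 35 (62.9%). The promoters of 4 genes that were lower are shown because they hold the letters, in capitals and in the direction of the gene: Isg15 at chr4:156200769-156201068 on the minus strand, Ifih1 at chr2:62646206-62646505 on the minus strand, Ifi44 at chr3:151749861-151750160 on the minus strand and Gbp2 at chr3:142620413-142620712 on the plus strand. Isg15 holds 3 overlapping matches, Ifih1 2, and Ifi44 and Gbp2 1 each.
Isg15: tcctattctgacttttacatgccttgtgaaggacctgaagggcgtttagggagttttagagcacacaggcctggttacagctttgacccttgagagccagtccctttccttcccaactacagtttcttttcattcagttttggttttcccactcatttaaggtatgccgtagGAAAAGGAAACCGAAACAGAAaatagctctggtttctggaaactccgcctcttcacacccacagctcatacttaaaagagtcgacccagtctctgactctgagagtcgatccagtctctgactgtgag
Ifih1: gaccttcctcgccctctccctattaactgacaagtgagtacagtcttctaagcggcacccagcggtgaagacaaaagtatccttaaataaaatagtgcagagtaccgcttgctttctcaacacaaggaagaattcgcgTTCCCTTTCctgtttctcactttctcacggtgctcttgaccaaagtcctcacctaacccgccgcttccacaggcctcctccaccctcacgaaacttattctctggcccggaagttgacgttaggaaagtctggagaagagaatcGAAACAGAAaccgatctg
Ifi44: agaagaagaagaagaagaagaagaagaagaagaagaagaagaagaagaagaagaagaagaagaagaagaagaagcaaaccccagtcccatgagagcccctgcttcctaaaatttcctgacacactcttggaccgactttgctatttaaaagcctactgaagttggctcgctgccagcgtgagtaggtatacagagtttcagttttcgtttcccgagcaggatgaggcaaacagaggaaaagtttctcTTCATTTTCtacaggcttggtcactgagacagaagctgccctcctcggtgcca
Gbp2: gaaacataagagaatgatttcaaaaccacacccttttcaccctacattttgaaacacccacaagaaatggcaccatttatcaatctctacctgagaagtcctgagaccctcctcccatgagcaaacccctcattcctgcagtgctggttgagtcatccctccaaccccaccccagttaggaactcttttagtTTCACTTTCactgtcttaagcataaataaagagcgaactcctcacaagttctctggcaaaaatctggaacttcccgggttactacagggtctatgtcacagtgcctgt

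Cholesterol synthesis is driven by SREBP factors when membrane sterol is low. Of 28 members 1 was higher and 0 lower past both thresholds, and 17 were higher and 3 lower by the adjusted p alone, with a median of 0.23. Mvd, in the raised end of chromosome 8, read 39.6, 38.2, 37.7 and 33.3 CPM in X2 and 129, 95.5, 99.6 and 95.4 CPM in CCR7. All CCR7 libraries were above X2, replicate 1 most of all, and the log2 fold change was 1.50 ± 0.10 (edgeR adjusted p = 2.4e-07). Hsd17b7 (0.57), Stard4 (0.56) and Hmgcs1 (0.51) rose, and Fdft1 on chromosome 14 fell (-0.40). Without CCR7 replicate 1 the median was 0.16. The batch 2 medians were 0.86 in CCR7-PDPN and 0.77 in X2-PDPN.

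Extracellular matrix was read in 4 lists, from the collagens to the enzymes that cross-link and degrade them. Of 20 tested collagens 3 were higher and 1 lower, with a median of 0.31 (unfiltered 0.18), and 0.29 without CCR7 replicate 1. Besides Col6a3, the fibrillar Col3a1 (1.97) and Col9a1 (2.17) were higher, and the basement membrane Col15a1 was lower (-2.79). Col3a1 read 5.24, 4.66, 5.48 and 4.6 CPM in X2 and 21.3, 19.2, 18.9 and 19.3 CPM in CCR7, level within each group and apart between them. The 20 collagen modifying genes had a median of -0.01, and Loxl2 was their only call. Next to it Plod2 (0.53) on chromosome 9 and Bmp1 (-0.52) on chromosome 14 moved by amounts close to the medians of their windows (0.466 and -0.436), and Crtap on chromosome 9 by more (0.86, window 0.437).

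Matrix proteases and their inhibitors had 0 higher and 7 lower of 28, with a median of -0.11 (unfiltered -0.15), and 0.11 outside the windows. Slpi, a secreted inhibitor of neutrophil elastase, read 40.8, 36.3, 39.5 and 41 CPM in X2 and 7.62, 8.6, 8.45 and 8.24 CPM in CCR7. X2 was high and CCR7 low in every library, with a log2 fold change of -2.26 ± 0.06 (edgeR adjusted p = 1.0e-17). Mmp3, at most 2.2 CPM, also fell (-2.05). The plasminogen activator gene Plat (-1.71) and Mmp2 (-1.53), the latter near 1 CPM, lie in lowered chromosome 8 windows. Plau (-1.22) and Adamts7 (-1.15) also lie inside the windows, Adamts7 in a raised one of chromosome 9. Only 3 of the 7 lower members lay outside the windows. Matrix glycoproteins and adhesion genes had 0 higher and 6 lower of 38, with a median of -0.09 (unfiltered -0.22), among them Lgals3 (-1.70, chromosome 14), Itgb7 (-1.47), Ltbp1 (-1.43) and Spp1 (-1.32).

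Markers of epithelial and mesenchymal state ask whether the 2 populations differ in cell form. The mesenchymal list had 2 higher and 3 lower of 24 with a median of 0.04 (unfiltered -0.02), and the epithelial list 0 higher and 1 lower of 13 with a median of -0.26 (unfiltered -0.59). The myosin kinase gene Mylk (2.40) and Ncam1 (1.78) rose, while the transcription factor genes Prrx1 (-2.27) and Snai2 (-1.70) fell, the latter and Ncam1 at under 1 CPM. Vimentin (Vim) was high in both, at 2570, 2490, 2400 and 2550 CPM in X2 and 2360, 2230, 2420 and 2340 CPM in CCR7. The groups overlapped and the log2 fold change was small (-0.10). Krt80 fell (-1.04), Krt7 was lower with overlapping groups (-0.72), and Krt8 did not change (0.09).

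Actin handling, the setting of Tmsb4x, had 2 higher and 4 lower of 52 and a median of 0.05. Lims2, of integrin adhesions, read 29.1, 29.7, 31.5 and 33.2 CPM in X2 and 4.28, 5.5, 6.1 and 5.68 CPM in CCR7. The groups were far apart with CCR7 low (-2.52 ± 0.09, edgeR adjusted p = 9.3e-16). Pfn2 (-1.75, with a mean of only 0.821 CPM in X2) and Fhdc1 (-1.55) also fell. Fhod1 in the raised end of chromosome 8 rose (1.01).

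Wnt pathway genes, read because of Rnf43, had 2 higher and 2 lower of 31 and a median of 0.04 (unfiltered 0.01), or 0.09 without CCR7 replicate 1. Tcf7l1, a repressor of Wnt targets, read 18.4, 18.2, 18.3 and 19 CPM in X2 and 56.3, 50.9, 49.7 and 53.6 CPM in CCR7. All CCR7 libraries were high, and the log2 fold change was 1.51 ± 0.05 (edgeR adjusted p = 7.7e-16). The ligands Wnt6 (-1.58) and Wnt2b (1.32) were under 1 CPM. The TGF-beta and BMP pathway, read with Bmp7, had 1 higher and 5 lower of 36 and 21 lower by the adjusted p alone, with a median of -0.24. Tgfb2 stood at -1.85 and the inhibitor Smad6, under 1 CPM and on chromosome 9, at 1.99. The EGF family had 0 higher and 2 lower of 19 and a median of -0.07. Its ligands Ereg (-1.35), Areg (-1.21) and Btc (-0.73), which are adjacent on chromosome 5, and Erbb3 (-0.77) were lower.

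Lysosome and phagocyte genes had 1 higher and 4 lower of 41 and a median of -0.10 (unfiltered -0.14). The phosphatase Acp5 rose (2.35), and Lyz2 (-1.88), Cd68 (-1.51) and Gpnmb (-1.35) fell. Complement had 0 higher and 1 lower of 10 and a median of -0.37 (unfiltered -0.60), the call being C3 (-1.32), with C2 (-0.78), C1ra (-0.56) and C4b (-0.64) below 0 too. C4b was near 1 CPM and its result depended on single libraries, as did that of Hspa1b below.

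Growth and stress lists had medians close to 0, over members that went both ways. Cell cycle and replication had 2 higher and 0 lower of 56 and a median of 0, and its calls E2f4 (1.16) and Gins2 (1.09) both lay in the raised end of chromosome 8. Outside the windows 0 members were called, and Mki67 did not change (0.11). Tfdp1 (-0.99) and Wdhd1 (-0.99) lay in lowered windows, just short of the fold threshold, and Wdhd1 passed it without CCR7 replicate 1 (-1.08). Hypoxia and glycolysis had 0 higher and 2 lower of 39 and a median of 0.06 (0.09 without CCR7 replicate 1), with Eno3 (-1.40) and Eno2 (-1.12) down and Car9 (0.70) and Hif1a (0.52) up by less.

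ATF4 and the unfolded protein response had 2 higher and 0 lower of 38 and a median of 0.03. The calls Aars (1.09) and Slc7a5 (1.09) lie in the raised end of chromosome 8, while Slc3a2 (0.84) and Slc7a11 (0.89), partners in amino acid transport, lie outside the windows. Slc7a11 read 31.9, 29.8, 27.9 and 31.5 CPM in X2 and 38.2, 59.8, 65.1 and 62.3 CPM in CCR7. CCR7 replicate 1 was the lowest of its group but still above all X2 libraries, and without it Slc7a11 stood at 1.05, past the fold threshold. The p53 targets had 0 higher and 3 lower of 26 and a median of -0.08. The lower ones were Eda2r (-2.37, under 1 CPM), Pmaip1 (-1.67) and Btg2 (-1.44), with Fas at -0.79. The BCL2 family had 1 higher, Bmf (1.02), and 1 lower, Pmaip1, of 13, with a median of 0.01, and Bcl2l1 was lower by less (-0.41). Bcl2l2 (-0.49) lies in a chromosome 14 window with a median of -0.426. Without CCR7 replicate 1 Bmf stood at 0.99, short of the fold threshold.

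Steroid and prostaglandin signalling had 0 higher and 2 lower of 16 and a median of -0.11 (unfiltered -0.23). Its calls, the phospholipase gene Pla2g4a (-1.78) and the cyclooxygenase gene Ptgs2 (-1.51), are adjacent on chromosome 1 and at most 2.52 CPM, and Vdr stood at -0.85. Glutamine and mitochondrial one-carbon enzymes had 0 higher and 3 lower of 22 and a median of -0.10, namely Kyat3 (-1.83), Glud1 of chromosome 14 (-1.77) and Gls2 (-1.06), while Idh3a stood at 0.50.

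Markers of other cell types were read to see whether the cultures held other cells. Leukocyte markers summed to 14.4, 11.9, 12.4 and 13.8 CPM in X2 and 7.65, 8.74, 8.12 and 9.14 CPM in CCR7. The sums were low in all 8 libraries and lower in CCR7, but the fall rested on Lyz2, the most abundant member. Without Lyz2 the mean sums were 6.27 CPM in X2 and 6.53 CPM in CCR7. Cd3e, Cd8a, Ms4a1, Itgam, Tyrobp, C1qa and S100a9 had no count, and of 5 tested members 1 was higher, Cd79a (2.21), and 2 lower, S100a8 (-2.45) and Lyz2, with a median of -0.18. That median, of few genes, ran from -0.79 without a filter on low counts to -0.01 without X2 replicate 4, and was -0.52 without CCR7 replicate 1. Their part in the other results was not tested.

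Fibroblast markers had 0 calls of 5 and a median of 0.04 (unfiltered -0.10), Pdgfra being the most abundant and Lum and Thy1 at 0. Pdgfrb stood at 0.26 with overlapping groups. Endothelial markers summed to a mean of 2.29 CPM in X2 and 2.72 CPM in CCR7. Their median was 0.16 and turned without the filter (unfiltered -0.76). Pdpn was the only call of 5. It passed the filter through the CCR7-PDPN libraries, so the call is not read as a result. Mammary epithelial markers had 1 call of 3, Foxa1 (-1.05), with Esr1 at -0.80 and a median of -0.80 (unfiltered -0.29). Foxa1 fell short of the fold threshold without CCR7 replicate 1 (-0.99), X2 replicate 1 (-0.99) or CCR7 replicate 3 (-0.80). Krt8 was high and Krt5, Elf5, Csn2, Wap, Pgr and Prlr had no count in either population, while Epcam and Cdh1 held at most 5 counts in a library and were not tested. Genes of RNA quality and handling stress had 0 calls of 23 and a median of 0.04, which ran from -0.04 to 0.04 over the alternatives. By the adjusted p alone 5 were higher and 9 lower. Their mean sum was 9160 CPM in X2 and 7870 CPM in CCR7, with every CCR7 library below every X2 library. Without Actb, the most abundant member, it was 5030 and 4610 CPM. Fos (-0.99), Fosb (-0.77) and Egr1 (-0.71) were lower, and Fos passed the fold threshold without CCR7 replicate 3 (-1.29). Hspa1b, a heat shock gene, read 5.77, 4.7, 5.86 and 4.73 CPM in X2 and 14, 9.48, 6.52 and 6.4 CPM in CCR7, uneven within CCR7, and its 0.80 went to 0.50 without replicate 1.

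**Figure D3:**
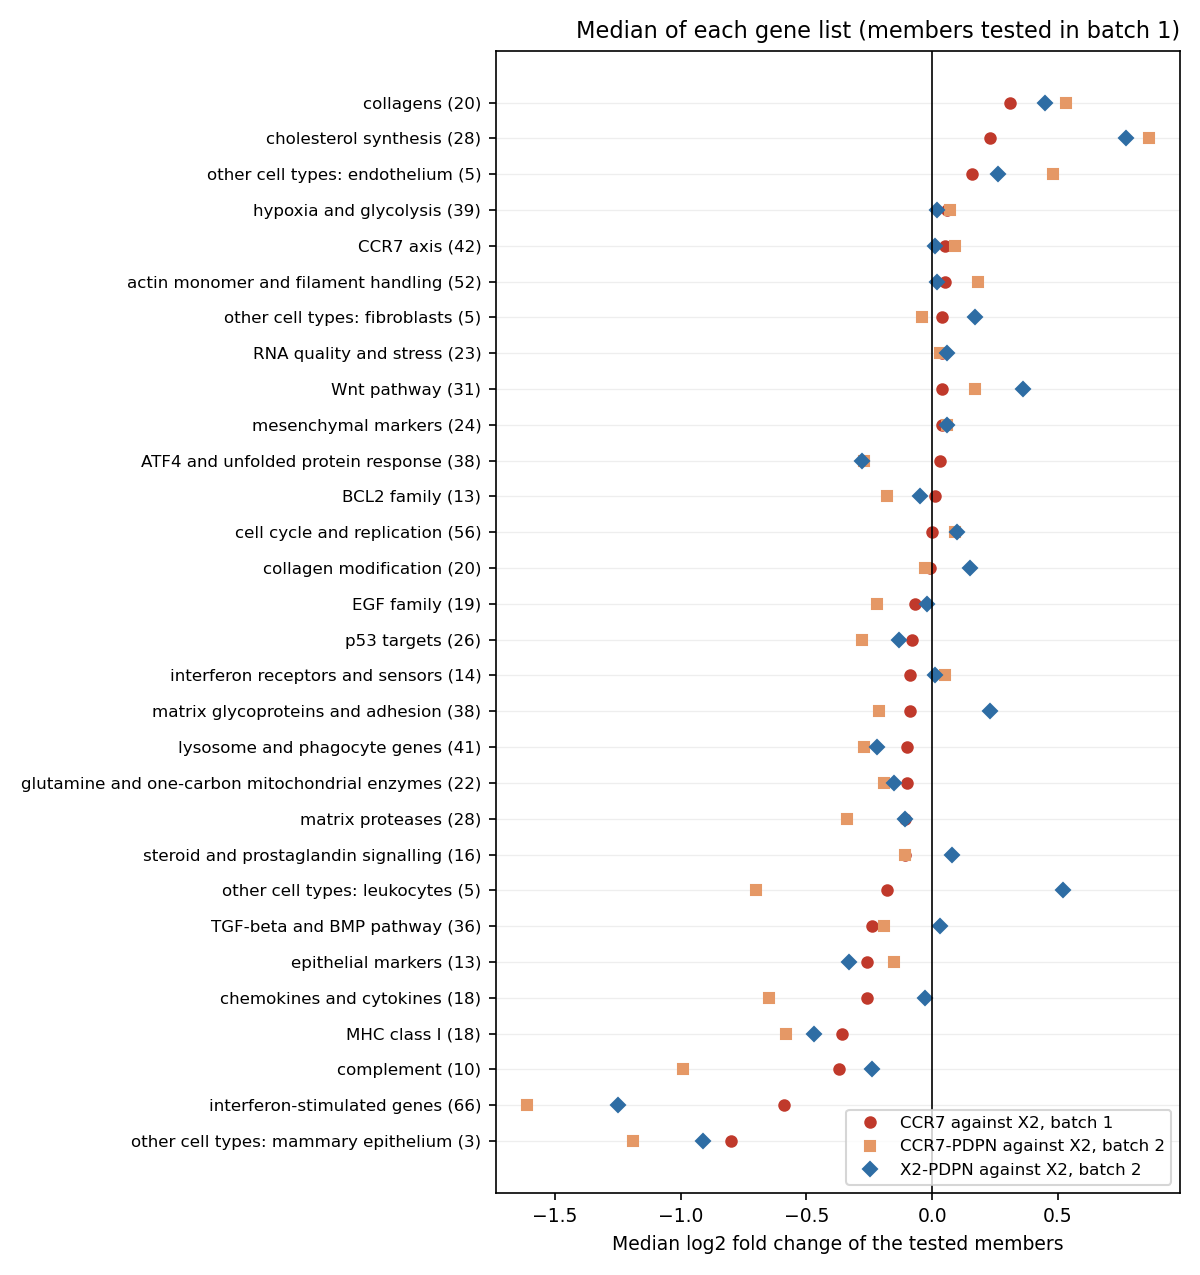
Median log2 fold change over X2 for the tested members of each of the 30 gene lists, for CCR7 in batch 1 and for CCR7-PDPN and X2-PDPN in batch 2. In CCR7 interferon-stimulated genes stood at -0.59 and collagens at 0.31, beside 0 over all genes.

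Set side by side, the results are these. CCR7 libraries held Ccr7 at 2720 to 2860 CPM, kept Pdpn under 1 CPM, and had 303 higher and 352 lower genes outside the shifted windows of chromosomes 8, 9 and 14. Near losses of Rhox1, Rnf43, Loxl2 and Bmp7 and the gain of Tmsb4x were found again in batch 2 libraries of CCR7-PDPN. That population was sorted from the CCR7 line and set against the same X2 population, so it is no independent replicate. Bche was 4.33 in CCR7 but 1.13 there, and the start of chromosome 8 went from 0.30 to -0.28. In CCR7 19 of 66 interferon-stimulated genes were lower and 0 higher past both thresholds, beside 3.18% and 3.30% of all genes. The median of that list was below 0 in CCR7 and in both PDPN-sorted populations of batch 2. Which of these differences follow from the receptor was not tested, since each group is 1 population.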

How the data were processed

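Counts per Ensembl gene, deposited by the authors, were used as given. They come from TruSeq Stranded mRNA libraries read as single ends of 75 bp and mapped to GRCm38 (mm10). Coordinates and symbols came from GENCODE M21 by gene identifier. No library was left out of the main counts.

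Genes with too few counts were removed by filterByExpr over the 3 groups of a batch, which left 13261 genes in batch 1 and 13314 in batch 2. Each batch was fitted by itself in edgeR 4.0.16 (TMM factors, robust quasi-likelihood fit over 12 libraries, F test) in R 4.3.3, with Benjamini-Hochberg adjustment over the genes tested. A call is an adjusted p under 0.05 with a log2 fold change beyond 1. The study's own methods used pyDESeq2 with the same thresholds. CPM are counts-per-million of the library total scaled by TMM. TPM used the gene lengths of the count table. The alternatives used DESeq2 1.42.0. Tables and figures used Python 3.11.15, pandas 2.3.3, numpy 2.4.6 and matplotlib 3.10.9. The fit was also run on simulated data with planted changes, from which no value is reported here.

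Shifted windows were tiles of 10 Mb on chromosomes 8, 9 and 14 with at least 10 tested genes and a median log2 fold change of at least 0.2 in size. Named genes are the 4 markers given with the comparison, Pdpn, the 10 largest rises and 10 largest falls outside the windows (past both thresholds, an average log2 CPM of 1 or more, groups that do not overlap), the 3 largest of that kind in the direction of the windows on each shifted chromosome, and the 4 largest changes with the adjusted p past 0.05 in each list. Not all of these are shown. Genes named beyond these were chosen after their values were seen. The 30 lists were: CCR7 axis, chemokines and cytokines, interferon-stimulated genes, interferon receptors and sensors, MHC class I, cholesterol synthesis, collagens, collagen modification, matrix proteases, matrix glycoproteins and adhesion, mesenchymal markers, epithelial markers, actin handling, Wnt pathway, TGF-beta and BMP pathway, EGF family, lysosome and phagocyte genes, complement, cell cycle and replication, hypoxia and glycolysis, ATF4 and unfolded protein response, p53 targets, BCL2 family, steroid and prostaglandin signalling, glutamine and one-carbon enzymes, markers of leukocytes, fibroblasts, endothelium and mammary epithelium, and RNA quality and stress. Members and lists were written from general knowledge and with earlier results of these data known.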

Additional observations from a re-analysis of the deposited data

Results flagged for a closer look

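Of 324 groups of 4 libraries looked at, 20 held 1 library set apart from the other 3. The limit was one that 1 in 20 groups would pass by chance alone. The cases were not spread evenly, since most of those in CCR7 fell on replicate 1. The measure was the distance of the library to its nearest neighbour as a share of the range of the group, and the values in brackets give it first.

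In X2, replicate 4 stood high in Phf11d (0.872, at 4.87 CPM with the next at 3.64), Aars (0.901, 595 and 578 CPM) and Bcl2l2 (0.976, 39.7 and 38.1 CPM). Replicate 3 was high in Rbpms2 (0.846, 4.21 and 3.58 CPM) and low in Scel (0.89, 5.16 and 5.42 CPM). Replicate 1 was high in Wnt6 (0.833, 0.734 and 0.633 CPM) and in the sum of chemokines and cytokines (0.869).

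In CCR7, replicate 1 was the library apart in 11 of 13 cases. It was high in Rhox1 (1, the only library with a read, at 0.031 CPM), 3110039I08Rik (0.878, 1.89 and 0.811 CPM), Mvd (0.875, 129 and 99.6 CPM) and Wdhd1 (0.926, 31 and 25.4 CPM). It was low in Plat (0.876, 7.9 and 8.67 CPM), C1ra (0.88, 10.5 and 11.9 CPM) and Pdgfrb (0.845, 68.3 and 83.9 CPM). Its sums were low for matrix proteases (0.865), the Wnt pathway (0.847) and steroid and prostaglandin signalling (0.848), and high for hypoxia and glycolysis (0.833). Replicate 2 was high in Anks1b (0.926, 3.1 and 2.11 CPM) and low in Krt7 (0.835, 0.906 and 1.44 CPM).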

How the results depend on the processing

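The counts of genes higher and lower were little moved by most choices. DESeq2 gave 431 and 416, of which 428 and 414 were shared. The 8 libraries of CCR7 and X2 alone gave 390 and 411. With the replicate number as a replicate block the counts were 435 and 419 (302 and 349 outside the windows), and same-number libraries were no more alike than others (correlations -0.078, 0.003, -0.052 and 0.016), so no pairing was used. Without the fold threshold 3189 genes were higher and 3345 lower (2600 and 2661 outside the windows), and without a filter on low counts 594 were higher and 658 lower (431 and 551 outside). Leaving out each library in turn gave 440 to 490 higher and 422 to 481 lower, 309 to 349 and 352 to 400 outside the windows, 543 to 591 and 773 to 813 for CCR7-PDPN in batch 2, and 483 to 531 and 209 to 243 for X2-PDPN. Other window limits or widths gave 299 and 351, 310 and 377, or 302 and 356 outside them, and 293 and 341 with all 3 chromosomes left out. No named gene changed its sign. Of the named genes C4b and Hspa1b lost their adjusted p under 0.05 in 5 alternatives each, 4 of them with 1 library left out (up to 0.099 and 0.079), and Foxa1, Bmf, Psmb9, Tfdp1, Wdhd1, Slc7a11 and Fos, all near it, crossed the fold threshold with 1 library left out. Of 450 list medians 38 moved and 5 changed sign, the largest move being 0.92 for endothelium without a filter.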

Other observations

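CCR7 replicate 1 held more mitochondrial counts and fewer counts of long genes than the other CCR7 libraries, and what set it apart is not recorded. The start of chromosome 8 was higher in CCR7 but lower in CCR7-PDPN of batch 2, each against X2. Ccr7 in X2 rested on 4 to 15 reads per library, which were not traced to a transcript.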
